A study of Mus musculus with 17 samples.

Results

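Oxidative phosphorylation subunit genes are the nuclear genes for the 5 enzyme complexes of the inner mitochondrial membrane and for cytochrome c. They were taken by their symbols, as all genes named as Nduf, Sdh, Uqcr, Cox4 to Cox8 and Atp5 subunits together with Cyc1 and Cycs, with pseudogenes left out. The rule found 86 of the 24537 genes in the tables. It uses no measured value, but it was set with earlier results of these data known. By complex they number 35 for complex I, 4 for complex II, 9 for complex III, 20 for complex IV, 17 for complex V and 1 electron carrier, Cycs. Ndufa4 is counted in complex IV, where its protein is known to sit despite its name. Atp5s and Atp5sl match by name and are counted in complex V, although neither protein is a subunit of the core enzyme.

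Complex I passes electrons from NADH and complex II passes them from succinate to ubiquinone. Complex III carries them on to cytochrome c, and complex IV hands them to oxygen. Complexes I, III and IV pump protons, and complex V, the ATP synthase, lets protons flow back to make ATP. T cells are known to use this route alongside glycolysis, and activated T cells build new mitochondria as they grow. The subunits encoded by mitochondrial DNA were looked for by symbol and not found in the tables, so they were not analysed here.

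RNA of sorted mouse T helper 2 (Th2) cells in 6 groups was read from 17 Smart-seq2 libraries. Smart-seq2 copies RNA of small cell samples to full-length cDNA before sequencing. GATIR mice carry a Gata3-YFP reporter, and in mice with an airway inflammation driven by an allergen their YFP-sorted Th2 cells came from bronchoalveolar lavage (BAL, the airway lumen; 3 libraries) and from the mediastinal lymph node (3 libraries). OTII mice carry a transgenic T cell receptor that recognises ovalbumin. Th2 cells of the mediastinal node under the same kind of inflammation came from OTII mice with the genotype label OTII_Notch1/2-KO (4 libraries) and from OTII mice without it (3 libraries), called wild type in the titles. The last groups were naive spleen T cells of OTII_Notch1/2-KO (2 libraries) and wild type OTII mice (2 libraries), kept for 7 days on plates coated with antibodies to CD3 and CD28, with IL-4 added and IFN-γ and IL-12/23 blocked. All OTII groups share the transgenic receptor. The promoter or cell type in which Notch1 and Notch2 were deleted, the allergen, the age of the mice and whether animals were pooled are not given in the sources used here. The series calls its libraries biological replicates without saying whether each came from its own animal, so the p-values measure the spread between these libraries.

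Depth was 16.3 to 27.5 M reads (M for mega) per library. Notch1 was at 8.01 to 12.9 scaled RPKM in knockout-labelled and 46.2 to 48.9 in wild type node cells, and at 4.23 and 1.06 in knockout-labelled and 26.3 and 29.4 in wild type cultured cells. Notch2 was at 14.1 to 18.7 scaled RPKM in knockout-labelled and 7.53 to 8.08 in wild type node cells, which goes against a loss of its transcript (log2 fold change 0.95, adjusted p = 0.00059), so these libraries are called knockout-labelled. The exons deleted are not given in the sources used here, and a transcript level over the whole gene cannot check a partial deletion. RPKM is the read count divided by transcript length and by library depth, and scaled means divided by 1 size factor per library. The airway libraries were the least alike, with correlations of log2 levels of 0.76 to 0.87 between replicates, against 0.93 to 0.96 in node reporter and 0.98 to 0.99 in OTII groups. Knockout-labelled node replicate 2 correlated with the other 3 of its group at 0.981 to 0.988, and those 3 with each other at 0.990 to 0.995. All 8 T cell markers found in the tables averaged at least 1 in every group.

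Transcripts of the subunit genes were abundant. Their summed level averaged 10867 ± 390 scaled RPKM in airway and 12627 ± 159 in node reporter cells (SD, n = 3 each). In the node the sum was 9462 ± 769 in knockout-labelled (n = 4) and 10713 ± 464 in wild type cells (n = 3). In culture it was 9409 ± 224 in knockout-labelled and 9030 ± 763 in wild type cells (n = 2 each). The sums made up 2.70% of all RPKM in airway and 3.37% in node reporter cells, 2.48% in knockout-labelled and 2.77% in wild type node cells, and 2.43% in knockout-labelled and 2.35% in wild type cultured cells. Airway sums of 10580 to 11311 lay below node reporter sums of 12449 to 12756. Sums of 8538 to 10283 in knockout-labelled node cells lay below those of 10392 to 11245 in wild type node cells, and the lowest of these libraries was knockout-labelled replicate 2. In bulk RNA, fewer cells of a type and less RNA per cell cannot be told apart.

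**Figure D1:**
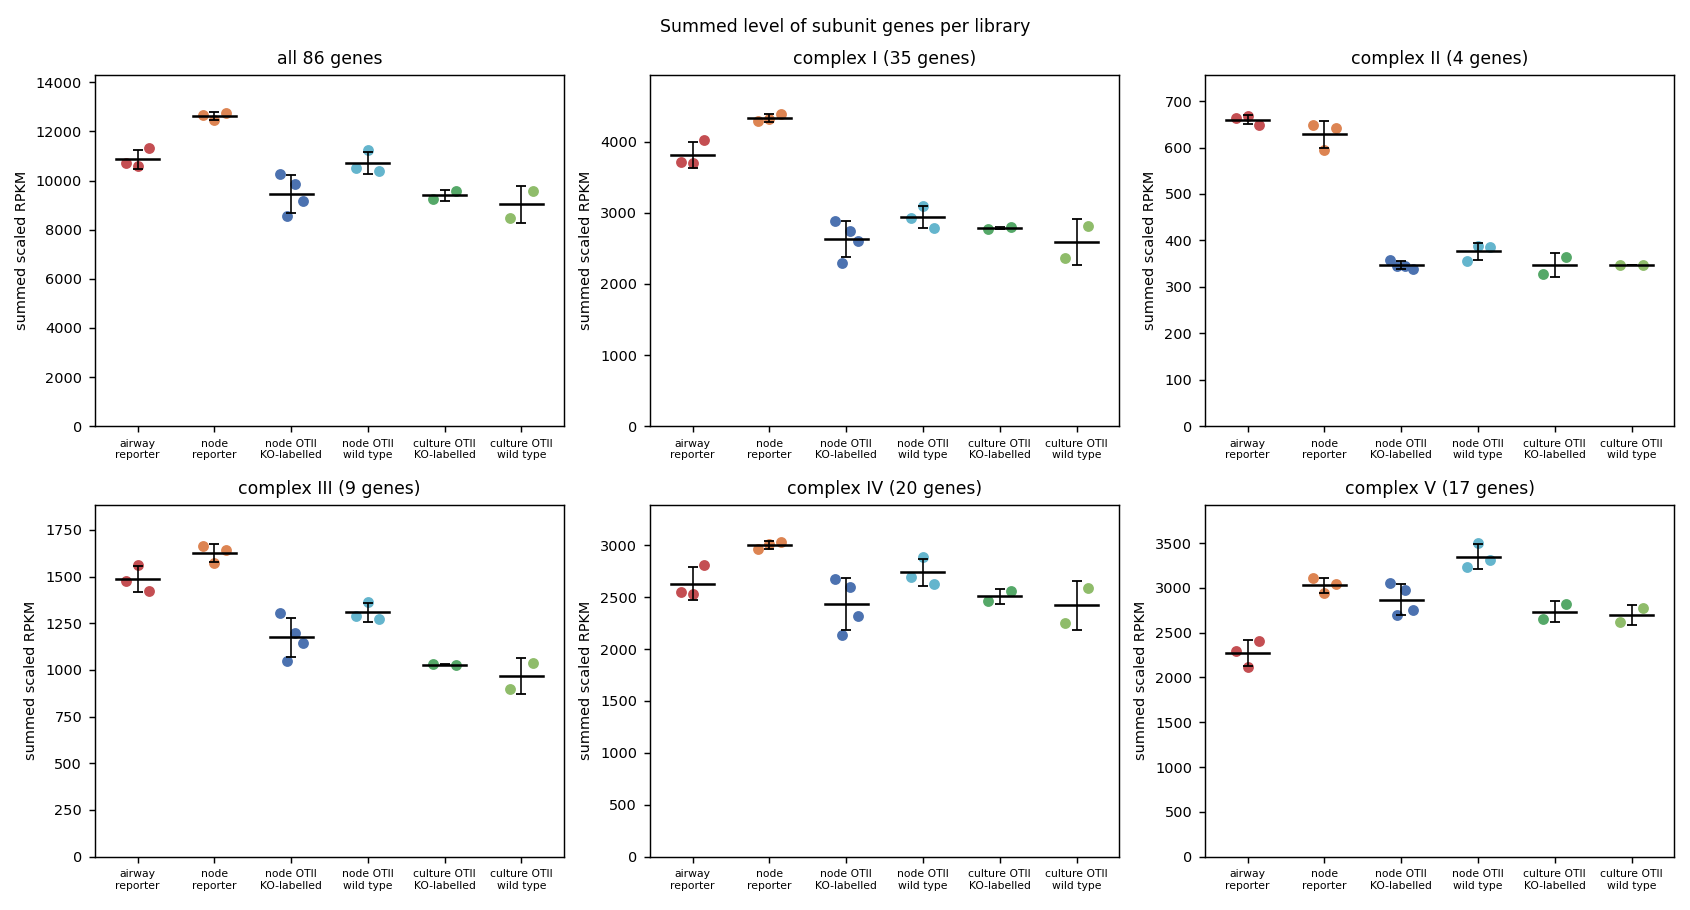
Summed scaled RPKM of the subunit genes per library (points), for all 86 genes and by complex. Horizontal lines are group means and bars are SD, with 3 airway and 3 node reporter, 4 knockout-labelled and 3 wild type node OTII, and 2 knockout-labelled and 2 wild type culture OTII libraries. For all 86 genes the airway points lie below the node reporter points, and of complexes I to V, complex II differs most between reporter and OTII libraries.

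Within each complex the members spanned a wide range of levels. The figures in this paragraph are means of the 6 group means in scaled RPKM, a unit per length of transcript. In complex I the highest was Ndufa3, an accessory subunit of the membrane arm, at 216.4 and the lowest Ndufb4, another accessory subunit, at 10.5. In complex II the iron-sulphur subunit Sdhb led at 183.5 and the membrane anchor Sdhc was lowest at 63.2. In complex III Uqcrh, the hinge protein beside cytochrome c1, was at 332 and the accessory subunit Uqcrq at 49.1. In complex IV Cox4i1, the main isoform of a regulatory subunit, was at 484, and the heart and muscle isoform Cox7a1 at 2.84 was the lowest above 1. In complex V Atp5b, the catalytic beta subunit, was at 553 and Atp5s at 2.50. Cycs, the soluble electron carrier, was at 4.43, and Cyc1, the cytochrome c1 it takes electrons from, at 113. Of the 50-base words of the transcripts, 37.0% for Ndufb4 and 28.5% for Cycs also occur in other genes, so the low levels of both are uncertain. Atp5b was the highest member in 5 groups, and Cox4i1, at 530.3, was the highest in the airway.

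The order of the 77 members at 1 or more in all libraries was close among OTII groups, with a Spearman coefficient across genes of 0.98 to 0.99, and 0.97 between airway and node reporter cells. Between a reporter and an OTII group it was 0.82 to 0.87. Sdhb showed the gap plainly, at 296 to 350.5 scaled RPKM in airway and 302 to 332 in node reporter libraries, against 104 to 132 in all 11 OTII libraries. Cycs was at 6.33 to 8.93 in the reporter libraries and 1.58 to 4.20 in the OTII libraries. Other members lay the other way. Atp5e was at 127 to 241 in the reporter and 275 to 451 in the OTII libraries, and Atp5k at 102 to 146 and 217 to 316. Reporter and OTII mice were not tested against each other, since mouse, sort and library set go together and cannot be told apart. Only Cox6b2 was listed under a different transcript in the reporter and OTII tables.

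**Figure D2:**
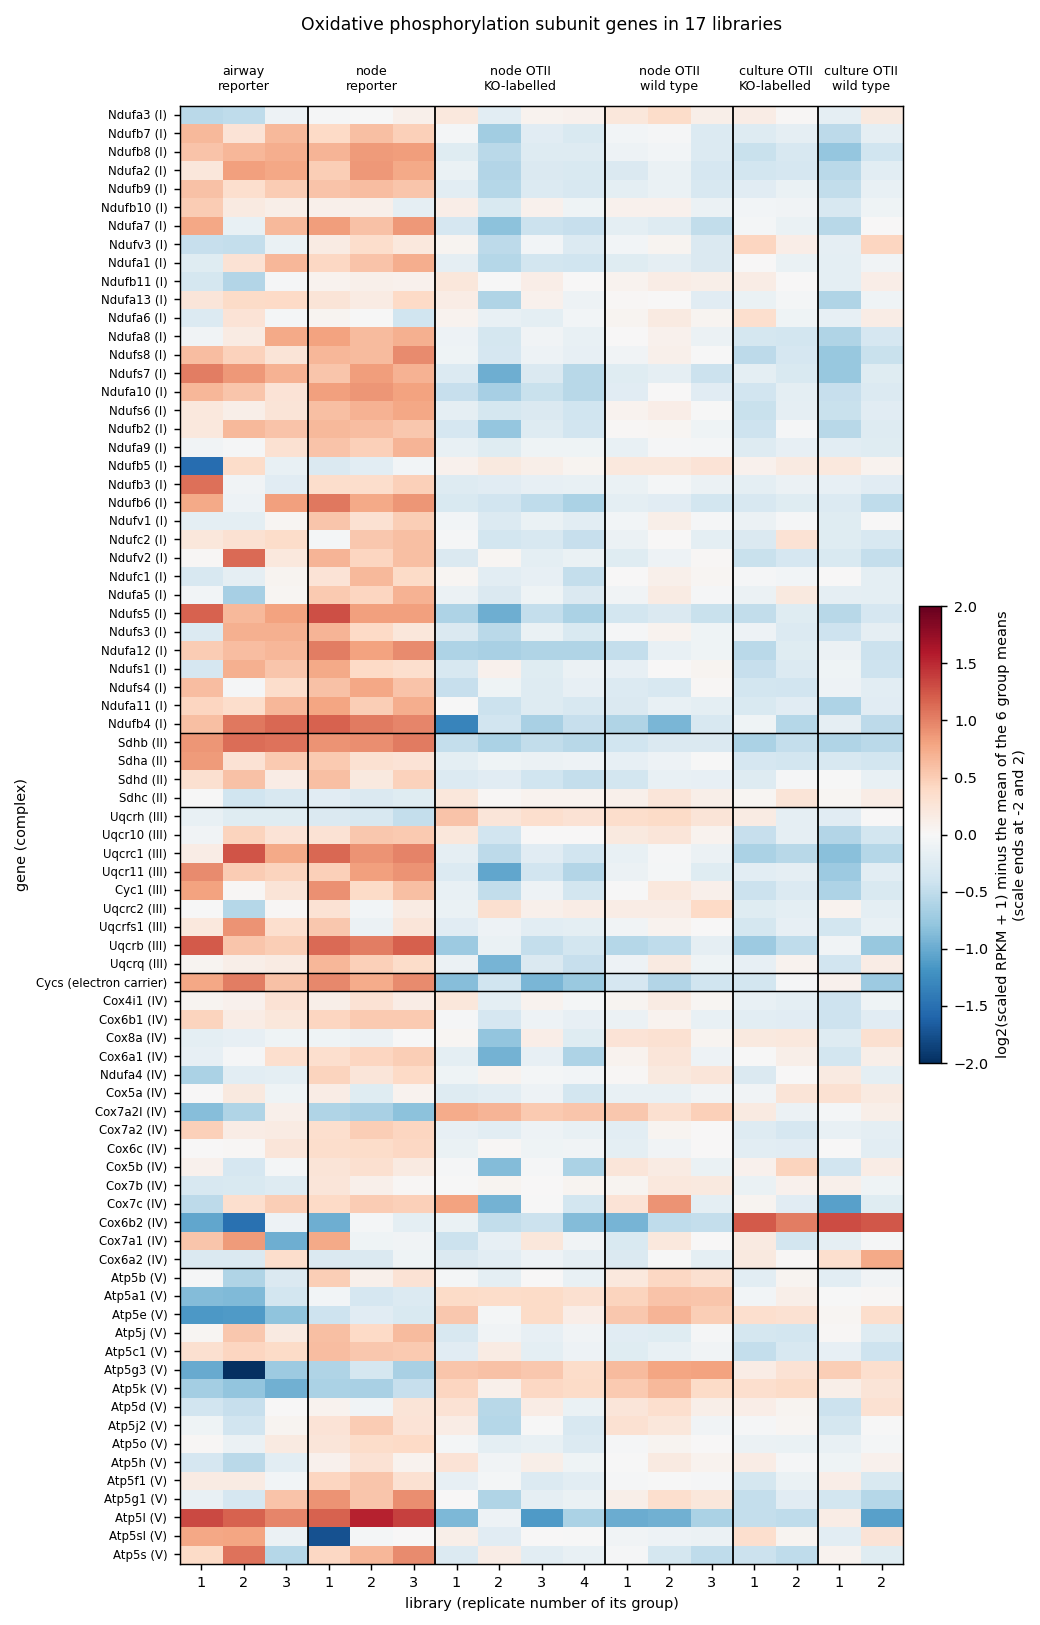
Level of the members that reached 1 scaled RPKM in any library (rows, by complex and then by mean level) in the 17 libraries (columns), as log2(scaled RPKM + 1) minus the mean of the 6 group means. Red is above and blue below that mean, and the colour scale ends at -2 and 2. The reporter libraries stand on the red side for most of complexes I and II, and Cox6b2 is red in the 4 culture libraries.

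Some isoforms known for other tissues were close to absent. Cox7b2 and Cox8c, both known from testis, had 0 reads in all 17 libraries, which allows up to 3 reads in each for counting error alone. Cox8b, a muscle isoform, was at 0 in 15 libraries, Cox4i2, an isoform known from lung and low oxygen, in 14, and Ndufa4l2, known as induced by low oxygen, in 13. Cox6a2, the muscle partner of Cox6a1, reached 1.06 scaled RPKM in wild type culture replicate 2 and stayed under 1 in the other libraries. Atp5g2, 1 of 3 genes for the c subunit of the ATP synthase ring, averaged 0.357, and 87.4% of the 50-base words of its transcript also occur in other genes, so its level is uncertain. These 7 genes failed the filter on low values, and 79 of 86 members were tested in each comparison. Cox7a1, the heart and muscle isoform, and Cox6b2, known from testis, were tested. They had 6 to 40 and 5 to 84 reads per library.

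Of the c subunit transcripts Atp5g3 made up 60.9 to 93.6% in every library. Atp5g1 made up 29.4% ± 8.0 of them in airway and 28.7% ± 5.0 in node reporter cells (SD, n = 3 each), against 7.71 to 9.90% in the means of the OTII groups. Cox7a2l, known to join complexes III and IV into supercomplexes, made up 40.5% of the Cox7a family in airway and 33.9% in node reporter cells. Its share in the OTII groups was 65.6% in knockout-labelled and 60.9% in wild type node cells, and 58.1% in knockout-labelled and 56.3% in wild type cultured cells. Cox4i1, Cox8a and Ndufa4 each made up at least 99.98% of their families in every group.

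Many promoters of respiratory genes are known to bind the factor NRF1, and others bind YY1 or ETS factors such as GABPA. RefSeq promoter windows (GRCm38.p6, 250 bases before to 50 after the start) matched 70 of the 86 members. The NRF1 core GCGCATGCG, read on both strands, was in 9 of these windows (12.9%). It was in 1.78% of 26955 windows of other genes and 4.46% of the 5202 whose gene was at 1 or more in all libraries. For other genes the first listed start was taken, and for members the start nearest that of their listed transcript. The YY1 motif AAGATGGCG was in 8 member windows (11.4%), against 1.47% of the windows of other genes and 4.40% of those of expressed other genes. The ETS motif CCGGAAG was in 16 (22.9%), against 9.09% of the windows of other genes and 24.0% of those of expressed other genes. A match describes the letters and is not a measured binding site. The stretches below hold the NRF1 core upstream of the start in 5 members, shown because they place the same letters in genes of complexes I, IV and V and in cytochrome c. They are printed 5′ to 3′ on the strand of the gene, and capitals mark the core or its reverse complement.
Ndufa8, chr2:36049339-36049367, minus strand: cgcttgcgcgtcgctggagaCGCATGCGC
Ndufa11, chr17:56717682-56717730, plus strand: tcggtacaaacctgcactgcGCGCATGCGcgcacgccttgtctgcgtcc
Cox6a1, chr5:115349092-115349140, minus strand: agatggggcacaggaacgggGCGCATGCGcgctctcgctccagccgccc
Atp5k, chr5:108434421-108434469, minus strand: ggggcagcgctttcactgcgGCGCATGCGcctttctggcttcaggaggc
Cycs, chr6:50566602-50566650, minus strand: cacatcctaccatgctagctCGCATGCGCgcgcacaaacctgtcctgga
Of the 5 genes, Ndufa8, a complex I accessory subunit, is the only one that passed a test below, in wild type node against culture cells. Of the 13 members with a window that rose there or fell there, 2 held the NRF1 core, 1 the YY1 and 2 the ETS motif.

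The first comparison set airway against node Th2 cells of reporter mice. No subunit gene rose in the airway and 2 of 79 fell, Atp5e and Ndufa4, in limma's moderated test with Benjamini-Hochberg adjustment over 10111 genes at 0.05. Of all genes tested 5.27% passed, 2.97% higher and 2.3% lower (300 and 233 genes). With RPKM as deposited the split was 229 higher and 317 lower. The log2 fold change of the members had a median of -0.27, and 66 of 79 were negative, against a median of -0.07 over all genes tested. On that deposited scale the median of all genes was -0.20 and that of the members -0.41, so the members lay below all genes on both scales.

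Atp5e, the epsilon subunit in the central stalk of the ATP synthase, was at 127, 128 and 161 scaled RPKM in the airway, against 211, 241 and 227 in the node. Every airway library was below every node library (log2 fold change -0.71, SE 0.15, adjusted p = 0.032). Ndufa4, the complex IV subunit, was at 118, 157 and 159.6 scaled RPKM in the airway, against 248, 217 and 241 in the node. The groups did not overlap, and its log2 fold change was -0.71 (SE 0.16, adjusted p = 0.040). Neither call was stable, since Atp5e was lost without airway replicate 1 or 2 or any 1 node library (adjusted p up to 0.15) and Ndufa4 without any 1 of the 6 (adjusted p up to 0.18). No member passed with voom or without the filter on low values.

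The complexes did not all lie at the same place. The median log2 fold change was -0.37 in complex V, -0.27 in complex III, -0.25 in complex IV and -0.19 in complex I, against 0.04 in complex II. In complex V 10 of 16 genes tested had every airway library below every node library, among them the alpha and beta subunits Atp5a1 and Atp5b and the c subunit Atp5g3. Over all members the groups did not overlap in 2 higher and 27 lower genes, and over all genes tested in 26.9%, 13.8% being lower in the airway. Atp5b was at 535, 358 and 446 scaled RPKM in the airway, against 764, 586 and 662 in the node (log2 fold change -0.60, SE 0.17, adjusted p = 0.084). Atp5g3 was at 95.7, 38.5 and 117 in the airway, against 128, 151 and 123 in the node, and did not pass either (log2 fold change -0.81, SE 0.36, adjusted p = 0.25). Sdha, the flavoprotein of complex II that also serves the citric acid cycle, was at 182, 123 and 145 in the airway, against 145, 124 and 122 in the node, and the groups overlapped. Sdhb, Cox4i1, Cox5a, Cox7a1, Cox7a2 and Cox8a had log2 fold changes of -0.16 to 0.07, with adjusted p of 0.62 or more, and Atp5g1, Cox6a1, Uqcrc1 and Cyc1 of -0.76 to -0.27, none past the threshold.

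Marker transcripts of other cell types and proliferation genes differed between these groups, and which cells they came from was not tested. The 8 T cell markers summed to 4228 to 4746 scaled RPKM in the airway and 3509 to 3825 in the node. Of these 8, 4 had a log2 fold change above 0, and Cd2 rose (1.11, adjusted p = 0.0025). The summed level of 13 macrophage markers was 3368 to 7870 scaled RPKM in the airway, with 13 of 13 averaging at least 1. It was 12.2 to 54.9 in the node, with 3 of 13, and Car4, Clec7a, Marco, Mrc1, Adgre1 and Itgax at 0 in every node reporter library. The 7 basophil and mast cell markers summed to 179 to 319 in the airway and 593 to 915 in the node, with Fcer1a, Ms4a2 and Prss34 at 0 in both and Cpa3 at 0 in the airway only. The 8 eosinophil and neutrophil markers summed to 32.0 to 58.9 in the airway and 0 to 1.15 in the node. The 6 dendritic cell markers summed to 14.5 to 32.9 in the airway and 2.19 to 4.07 in the node, with 2 of 6 averaging at least 1 in the airway and 1 of 6 in the node. Zbtb46, Clec9a and Ccl22 were at 0 in every airway library, and Clec9a, Cd209a and Ccl22 in every node library. The 6 epithelial markers summed to 12.8 to 90.2 in the airway and 0.241 to 9.27 in the node, with 4 of 6 averaging at least 1 in the airway and 1 of 6 in the node, where Scgb1a1, Sftpc, Krt8 and Cdh1 were at 0. The 4 B cell markers summed to 3.72 to 35.9 in the airway and 34.8 to 54.8 in the node, and Cd79b fell (log2 fold change -3.81, adjusted p = 0.0075). The 12 proliferation genes summed to 231 to 271 in the airway and 869 to 1314 in the node, and 9 of them fell. The part of each in the subunit levels was not tested.

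The second comparison set knockout-labelled against wild type Th2 cells of the node. No subunit gene rose and 6 of 79 fell, at log2 fold changes of -0.43 to -0.37. Of 10869 genes tested 18.1% passed, 10.4% higher and 7.68% lower, so 6 of 79 is near the share of lower calls among all genes. With node libraries averaged by the first number of their column headers, whose meaning is not stated, a setting chosen after seeing the data, 14 members fell, and with a replicate block 0. Of the log2 fold changes 70 of 79 were negative, among them all 35 of complex I, with a median of -0.16 against 0.02 over all genes tested. In 24 members, all lower, the groups did not overlap, against 31.2% of all genes tested, 14.1% being lower.

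Atp5b, the catalytic subunit of the ATP synthase, was at 531, 474, 544 and 489.9 scaled RPKM in knockout-labelled cells, against 631, 728 and 682 in wild type cells. The groups did not overlap, and its log2 fold change was -0.42 (SE 0.09, adjusted p = 0.012). Cyc1, cytochrome c1 of complex III, was at 97.1, 76.3, 99.5 and 82.8 in knockout-labelled cells, against 106, 124 and 116 in wild type cells (log2 fold change -0.38, SE 0.11, adjusted p = 0.044). All 4 values of Cyc1 in knockout-labelled cells lay below the 3 of wild type cells.

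The other 4 genes belong to complex I and are accessory subunits. Ndufs6 was at 64.8, 57.3, 59.7 and 55.2 scaled RPKM in knockout-labelled cells, against 76.8, 80.7 and 72.5 in wild type cells (log2 fold change -0.37, SE 0.08, adjusted p = 0.014). Ndufa10 was at 64.9, 56.3, 65.1 and 60.3 in knockout-labelled cells, against 76.3, 89.4 and 76.0 in wild type cells (log2 fold change -0.38, SE 0.09, adjusted p = 0.020). Neither gene overlapped between the groups. Ndufa12 was at 21.3 to 22.1 in knockout-labelled cells, against 24.1 to 31.8 in wild type cells (adjusted p = 0.031). Ndufb2 was at 38.1 to 55.1 in knockout-labelled cells, against 61.8 to 68.2 in wild type cells (adjusted p = 0.043). Of the transcripts of Ndufa12 and Ndufb2, 53.8% and 33.5% of the 50-base words also occur in other genes, so their levels are uncertain.

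Cox6a1, the main isoform of a complex IV subunit, had the lowest log2 fold change and did not pass (-0.55, SE 0.19, adjusted p = 0.076). It was at 257, 153, 263 and 192 scaled RPKM in knockout-labelled cells, against 308, 348 and 276 in wild type cells, and the groups did not overlap. Atp5g1 (-0.46, adjusted p = 0.052) and Sdhb (-0.22, adjusted p = 0.073) did not pass either. Cox7a2l had the highest value, 0.18 (adjusted p = 0.19).

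None of the 6 calls held with every single library left out. The number of members that fell was 0 without wild type replicate 2, 1 without wild type replicate 3, 3 without wild type replicate 1 and 2 without knockout-labelled replicate 4. It was 11 without knockout-labelled replicate 2, the library that stood apart, where the median over the members was -0.12. The proliferation genes summed to 998 to 1223 scaled RPKM in knockout-labelled and 1240 to 1416 in wild type cells, 12 of 12 averaging at least 1 in both, and 3 of them fell (Birc5, Ccnb1 and Pcna). The macrophage markers summed to 5.24 to 8.97 in knockout-labelled and 11.6 to 14.7 in wild type cells, with 3 of 13 averaging at least 1 and Car4 at 0 in both, and Cd68 fell. The basophil and mast cell markers summed to 0.134 to 0.713 in knockout-labelled and 2.32 to 2.68 in wild type cells, and Hdc fell. Cd3g of the T cell list rose in knockout-labelled cells (log2 fold change 0.49, adjusted p = 0.0091). So did Ccl22 of the dendritic (0.81, adjusted p = 0.020) and Epcam of the epithelial list (0.64, adjusted p = 0.030). The dendritic cell markers summed to 1.74 to 3.06 in knockout-labelled and 0.844 to 1.30 in wild type cells. The T cell marker sums, 3175 to 3792 and 3026 to 3296, overlapped. The part of these in the subunit levels was not tested.

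**Figure D3:**
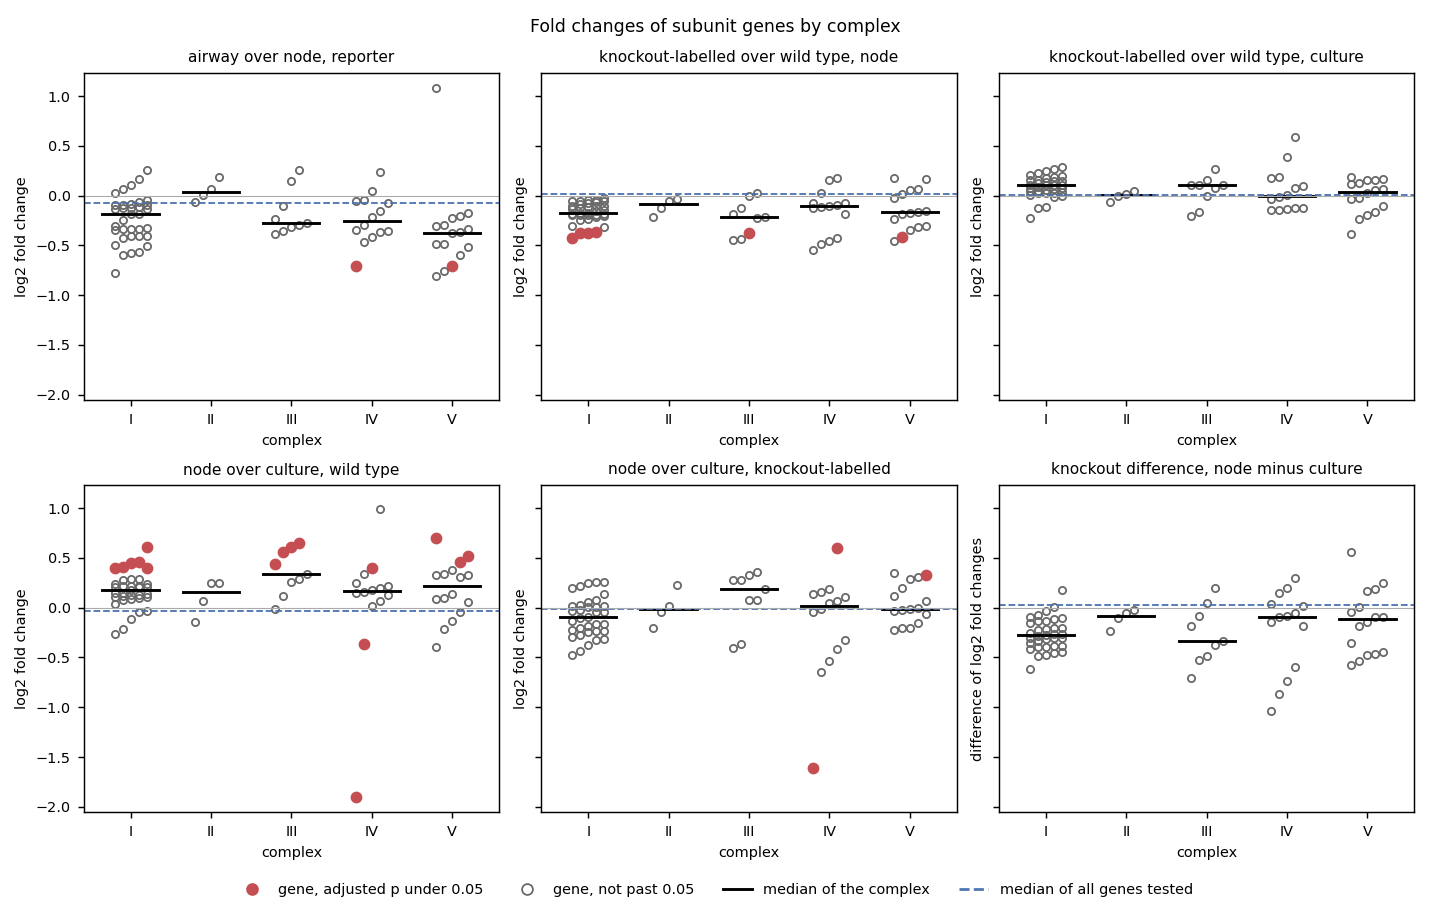
Log2 fold change of each tested member (points) by complex in the 5 comparisons of 2 groups, and the difference of the knockout log2 fold changes between node and culture. Filled points passed 0.05 after adjustment over all genes, black bars are complex medians and dashed lines the median of all genes tested. All 35 points of complex I lie below 0 for knockout-labelled over wild type in the node, and 14 points are filled above 0 for wild type node over culture.

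The third comparison set knockout-labelled against wild type cells after 7 days of Th2 culture. No subunit gene passed, and 0% of the 10968 genes tested did. With 2 libraries in each group, Notch1 did not pass either (log2 fold change -3.14, SE 0.38, adjusted p = 0.33). At an unadjusted p under 0.05 there were 256 genes and 0 members, and limma voom on reads recovered from RPKM called 2 genes and 0 members. The median log2 fold change of the members was 0.07, with values from -0.39 (Atp5s) to 0.59 (Cox7c) and a median SE of 0.17. The groups did not overlap in 4 members that were higher and 8 that were lower, against 21.2% of all genes tested. A p that misses the threshold does not show that the groups are alike. Atp5b was at 468 and 566 scaled RPKM in knockout-labelled and 471 and 518 in wild type cultured cells, and Cyc1 at 79.5 and 88.2 in knockout-labelled and 70.0 and 86.4 in wild type cultured cells. Both genes overlapped between the groups.

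Whether the knockout difference itself differed between node and culture was tested over all 11 OTII libraries. No subunit gene passed, while 3.84% of 11508 genes did, 1.49% lower. At an unadjusted p under 0.05 there were 12 of 79 members (15.2%), against 18.6% of all genes tested, and voom called 0 members. The difference of log2 fold changes, node minus culture, was -0.21 in the median member against 0.02 over all genes tested. For the 6 members that fell in the node it ran from -0.62 to -0.26, with the smallest adjusted p at 0.14 (Atp5b). The node libraries enter both this contrast and the node comparison.

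The largest number of calls came from wild type node against wild type cultured cells. Here 14 of 79 subunit genes rose in the node and 2 fell, where 31% of 11108 genes passed, 13.5% higher and 17.5% lower. Without the filter on low values 9 rose, and with node libraries averaged by header number 7 rose and 1 fell. The median log2 fold change of the members was 0.20 and 65 were positive, against a median of -0.03 over all genes tested. By complex, 6 of 35 genes of complex I rose, 4 of 9 of complex III, 1 of 14 tested of complex IV and 3 of 16 tested of complex V, and none of the 4 of complex II passed. The groups did not overlap in 34 members that were higher and 3 that were lower, against 57.9% of all genes tested, 27.1% higher and 30.8% lower.

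In complex V the c subunit gene Atp5g1 was at 33.1, 38.7 and 35.6 scaled RPKM in node and 23.4 and 20.05 in cultured cells. The groups did not overlap, and the log2 fold change was 0.70 (SE 0.12, adjusted p = 0.0043). Atp5a1, the alpha subunit, was at 404, 439.9 and 435 in node and 294 and 302 in cultured cells (log2 fold change 0.52, SE 0.10, adjusted p = 0.0075). Atp5b was at 631, 728 and 682 in node and 471 and 518 in cultured cells (log2 fold change 0.46, SE 0.11, adjusted p = 0.021). All 3 genes were higher in every node library than in either culture library, and Atp5g1 and Atp5a1 passed with any 1 library left out.

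In complex III 4 genes rose together. Uqcr10, a small membrane subunit, was at 249, 258 and 229 scaled RPKM in node and 144 and 167 in cultured cells (log2 fold change 0.65, SE 0.11, adjusted p = 0.0046). Uqcrc1, a core protein, was at 128, 141 and 131 in node and 79.1 and 95.0 in cultured cells (log2 fold change 0.61, SE 0.11, adjusted p = 0.0066). Both passed with any 1 library left out. Cyc1 was at 106, 124 and 116 in node and 70.0 and 86.4 in cultured cells (log2 fold change 0.56, adjusted p = 0.014). Uqcrh was at 416, 427 and 388 in node and 278 and 327 in cultured cells (log2 fold change 0.44, adjusted p = 0.024).

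In complex I the core iron-sulphur subunit Ndufs8 was at 88.4, 99.3 and 91.9 scaled RPKM in node and 54.2 and 68.0 in cultured cells (log2 fold change 0.61, SE 0.12, adjusted p = 0.0097). It passed with any 1 library left out. The accessory subunits Ndufa8, Ndufb8, Ndufb2 and Ndufs6 rose by log2 fold changes of 0.40 to 0.46 (adjusted p of 0.024 to 0.043). Ndufa8, shown above with an NRF1 core, was at 99.9, 106 and 92.4 in node and 65.4 and 79.0 in cultured cells.

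Complex IV went both ways. Cox6b2, known as the testis isoform of a subunit facing the intermembrane space, was at 1.19, 1.93 and 2.01 scaled RPKM in node and 9.24 and 8.85 in cultured cells. Its log2 fold change was -1.90 (SE 0.17, adjusted p = 0.00024), and it rested on 10, 19 and 20 reads in the node and 84 and 82 in culture. Its share of the Cox6b pair was 0.47% in node and 2.89% in cultured cells, the rest being Cox6b1. Cox5a was at 167, 167 and 176 in node and 228 and 211 in cultured cells (log2 fold change -0.37, SE 0.10, adjusted p = 0.025). Its transcript overlaps an lncRNA gene on the opposite strand over 41.7% of its length and shares words with other genes, so its level is uncertain where counting did not use strand, which is not stated. Cox7a2l, the supercomplex factor, was at 232, 200 and 222 in node and 156 and 174 in cultured cells (log2 fold change 0.40, SE 0.11, adjusted p = 0.031).

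Of the 14 members that rose, Atp5a1, Atp5g1, Ndufs8, Uqcr10 and Uqcrc1 passed with every single library left out, and of the 2 that fell, Cox6b2. The number that rose was 7, 6 and 8 without wild type node replicates 1, 2 and 3. It was 7 without wild type culture replicate 1 and 27 without wild type culture replicate 2. The number that fell was 1 without any 1 of the node libraries, 3 without culture replicate 1 and 4 without culture replicate 2. The proliferation genes summed to 1240 to 1416 scaled RPKM in node and 1586 to 1663 in cultured cells, 12 of 12 averaging at least 1 in both, and 4 fell (Top2a, Birc5, Aurkb and Mki67). The B cell markers summed to 13.1 to 16.0 in node and 8.20 to 10.6 in cultured cells, with 3 of 4 averaging at least 1 in the node and 1 of 4 in culture. The T cell markers summed to 3026 to 3296 in node and 2386 to 2590 in cultured cells, and of 8 tested 3 rose, led by Cd4 (log2 fold change 2.21, adjusted p = 5.0e-05), and 1 fell. The macrophage markers summed to 11.6 to 14.7 in node and 4.29 to 4.43 in cultured cells, with Siglecf and Lyz2 higher, and the basophil and mast cell markers to 2.32 to 2.68 in node and 6.55 to 16.1 in cultured cells, with Hdc higher and Cpa3 lower. The part of these in the subunit levels was not tested.

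**Figure D4:**
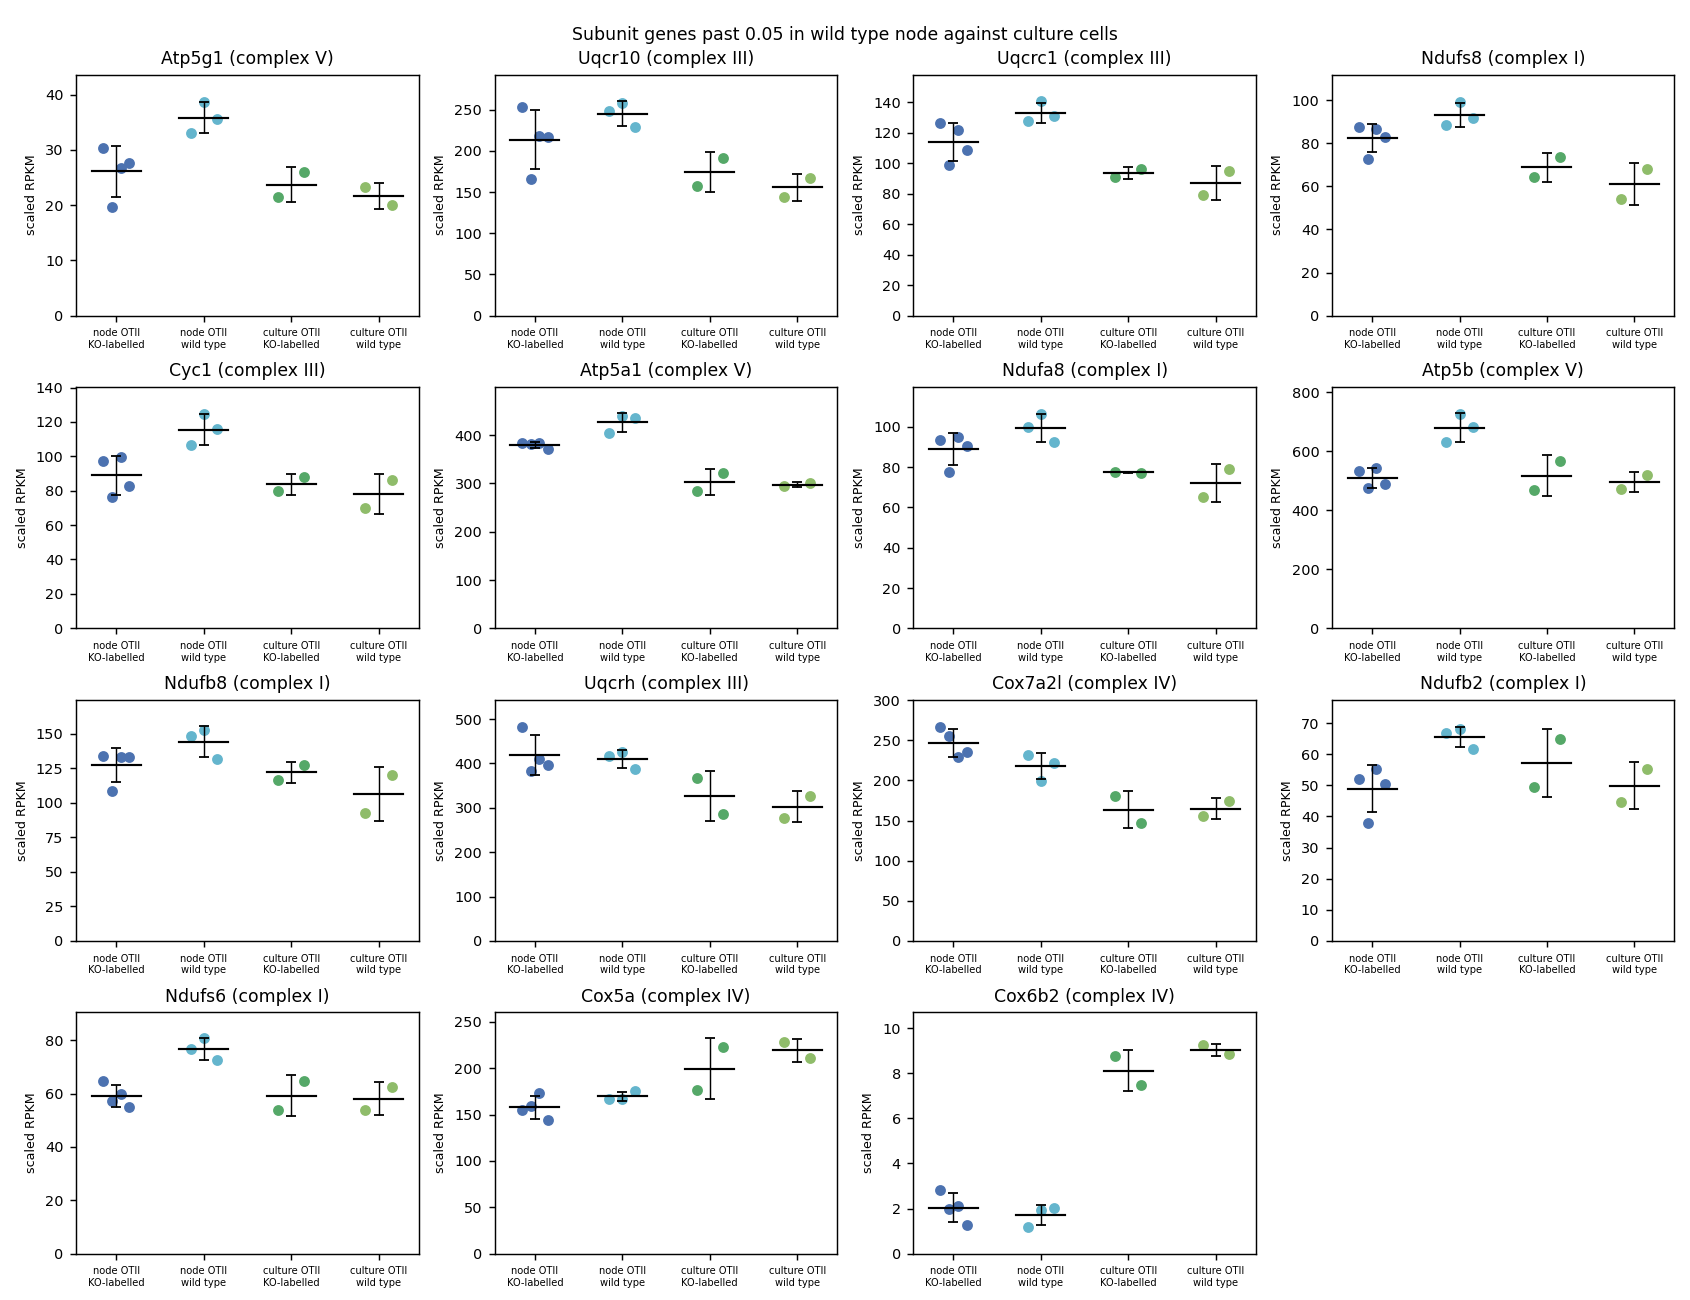
Scaled RPKM per library (points) in the 4 OTII groups for 15 of the members past 0.05 in wild type node against wild type cultured cells, with group means (lines) and SD (bars). Each axis starts at 0. Atp5g1 in wild type node cells lies above all other groups, and Cox6b2 lies under 3 in the node and at 7.48 to 9.24 in culture.

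Between knockout-labelled node and cultured cells fewer subunit genes passed. Of 79, 2 rose in the node and 1 fell, where 29% of 11227 genes passed, 13.7% higher and 15.3% lower. In 1 fit of all OTII libraries 5 rose and 3 fell, and with node libraries averaged by header number 2 rose and 8 fell. The median log2 fold change of the members was -0.02, the same as over all genes tested to 2 decimals. Members whose groups did not overlap numbered 15 higher and 12 lower, against 49.7% of all genes tested, 23.8% higher and 25.9% lower. Cox7a2l was at 267, 255, 229.6 and 235.5 scaled RPKM in node and 180 and 147 in cultured cells (log2 fold change 0.59, SE 0.12, adjusted p = 0.0079). Atp5a1 was at 384, 382, 385 and 371 in node and 284 and 321.5 in cultured cells (log2 fold change 0.33, SE 0.10, adjusted p = 0.043). Cox6b2 was at 2.81, 1.97, 2.10 and 1.27 in node and 8.76 and 7.48 in cultured cells, on 11 to 27 reads in the node and 78 and 67 in culture. It fell in the node with every single library left out (log2 fold change -1.61, SE 0.20, adjusted p = 0.00077). Cox7a2l, Atp5a1 and Cox6b2 passed in the same direction in both genotypes, which share no library. How many of all genes tested did so was not counted. In the knockout-labelled pair neither Cox7a2l nor Atp5a1 kept its call with every single library left out. Under 7 other settings Atp5a1 kept its call there in 3 and Cox7a2l in 7.

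The 14 members that rose in wild type node cells had log2 fold changes of -0.22 to 0.59 between knockout-labelled node and cultured cells, with a median of 0.23 and 12 of 14 positive. The node comparison of genotypes shares its wild type libraries with the wild type node against culture comparison, and Cyc1, Atp5b, Ndufb2 and Ndufs6 passed in both. The difference between the genotypes was the contrast already given, in which no member passed. Without knockout-labelled node replicate 2 the number that rose was 7 and the number that fell 3. Without knockout-labelled culture replicate 2 none rose, and without culture replicate 1 or node replicate 3 or 4, 1 rose. Without node replicate 1 4 fell. The proliferation genes summed to 998 to 1223 in node and 1467 to 1733 in cultured cells, and 8 of 12 fell. The B cell markers summed to 13.7 to 18.3 in node and 8.77 to 14.0 in cultured cells, with 4 of 4 averaging at least 1 in the node and 1 of 4 in culture. The T cell markers summed to 3175 to 3792 in node and 2369 to 2855 in cultured cells, and 4 of 8 rose. The macrophage markers summed to 5.24 to 8.97 in node and 4.14 in each culture library, and the basophil and mast cell markers to 0.134 to 0.713 in node and 5.69 to 8.003 in cultured cells. The part of these was not tested.

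Lists of other mitochondrial and glycolytic genes were read beside the subunits. In the airway against the node 5 of 16 glycolysis genes fell, from Tpi1, triose phosphate isomerase (log2 fold change -2.29, adjusted p = 0.0014), to Aldoa, aldolase A (-0.70, adjusted p = 0.011). None of 17 citric acid cycle genes, 43 assembly factors, 18 import genes or 17 mitochondrial regulators tested passed there, and 1 of 74 mitochondrial ribosome genes fell, Mrpl12 (-0.79, adjusted p = 0.031). Of all genes tested 2.97% were higher and 2.3% lower there.

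In knockout-labelled against wild type node cells 9 of 17 import genes fell, from Timm23, the channel of the inner membrane translocase (log2 fold change -0.92, adjusted p = 0.034), to Timm44 (-0.33, adjusted p = 0.020). Their median log2 fold change was -0.38. Of mitochondrial ribosome genes 11 of 74 fell, from Mrps28 (-0.74) to Mrpl19 (-0.29). Of 43 assembly factors 4 fell, from Cox17, the copper chaperone of complex IV (-0.51, adjusted p = 0.027), to Ecsit (-0.30). Of 17 citric acid cycle genes 2 fell, Mdh2, malate dehydrogenase (-0.40, adjusted p = 0.013), and Cs, citrate synthase (-0.26, adjusted p = 0.029). Of 17 regulators 2 fell, Pprc1, a PGC-1-related coactivator (-0.76, adjusted p = 0.0014), and Twnk, the mitochondrial DNA helicase (-0.44, adjusted p = 0.019). Of 16 glycolysis genes 2 fell, Slc2a1 and Ldha, and no gene of these lists rose. Of all genes tested 18.1% passed in this comparison, 10.4% higher and 7.68% lower. The counts of 4 of 43, 2 of 17 and 2 of 16 are thus near the share of lower calls among all genes. In culture 0 genes of these lists passed. Pprc1 alone among them passed the test of the knockout difference between node and culture (-0.74, SE 0.16, adjusted p = 0.028).

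In wild type node against cultured cells 9 of 17 citric acid cycle genes rose, led by Idh2, mitochondrial isocitrate dehydrogenase (log2 fold change 0.66, adjusted p = 0.0078), and 1 fell. Their median was 0.39. Of 16 glycolysis genes 0 rose and 7 fell, from Aldoc (-2.09) to Pgam1 (-0.33), with a median of -0.36. Of assembly factors 8 of 44 rose and 1 fell, of import genes 4 of 17 rose, and of mitochondrial ribosome genes 13 of 74 rose and 1 fell, with Mrps6 at 1.72. Counting both directions, 20.5% of assembly factors, 23.5% of import and 18.9% of mitochondrial ribosome genes passed. The share was 58.8% of citric acid cycle and 43.8% of glycolysis genes, against 31% of all genes tested, 13.5% higher and 17.5% lower. In knockout-labelled node against cultured cells 6 of 17 citric acid cycle genes rose and 1 fell, while 12 of 16 glycolysis genes fell, with a median of -0.60. There 4 of 44 assembly factors rose and 2 fell, 4 of 74 ribosome genes rose and 3 fell, 1 of 17 import genes rose and 1 fell, and of 17 regulators Pprc1 fell (-0.66, adjusted p = 0.0050). Counting both directions, 13.6% of assembly factors, 9.46% of ribosome and 11.8% of import genes passed. The share was 41.2% of citric acid cycle and 75% of glycolysis genes, against 29% of all genes tested. The subunit or regulator genes outside the naming rule that were tested (Ndufab1, Usmg5, 2010107E04Rik and Atpif1) passed in no comparison.

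**Figure D5:**
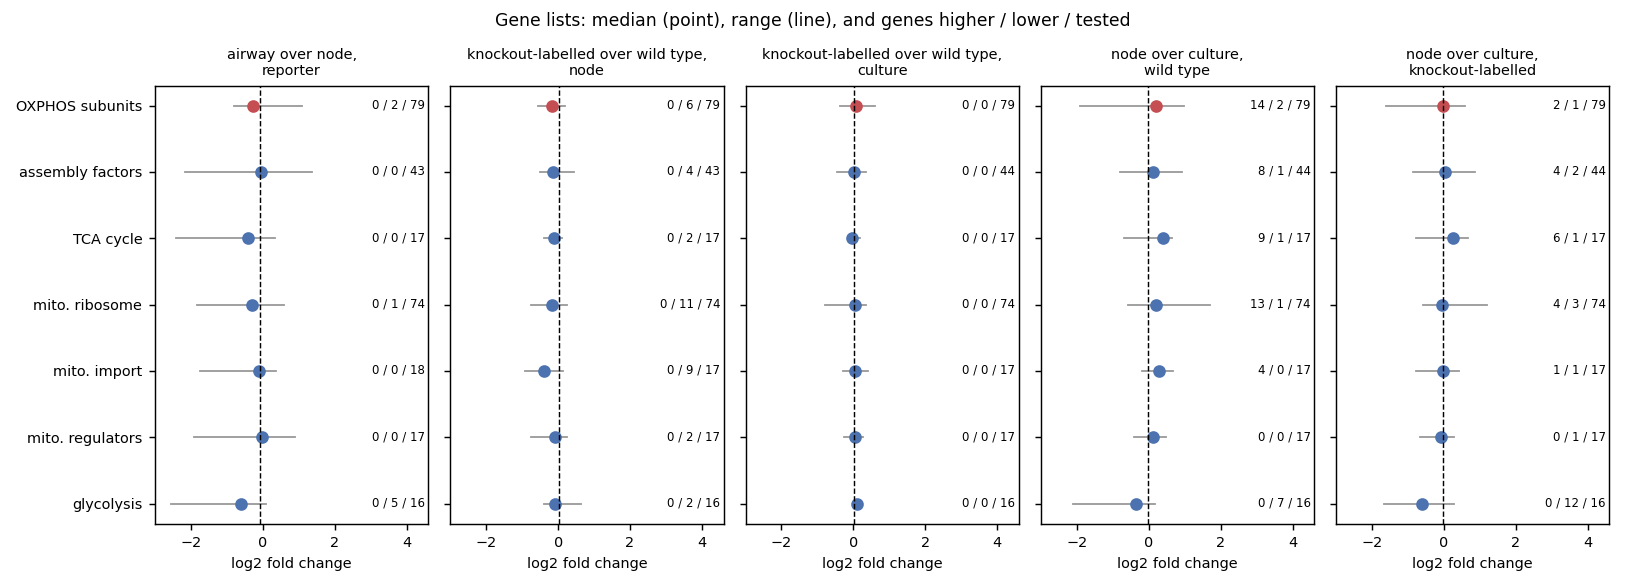
Median (point) and range (line) of the log2 fold changes of the subunit genes and 6 other gene lists in the 5 comparisons of 2 groups, with the number of genes higher, lower and tested at the right. The dashed line is the median of all genes tested. Glycolysis lies left of that line in both node over culture panels, at medians of -0.36 and -0.60, and the citric acid cycle (TCA) list right of it.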

How the data were processed

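Sorted mouse Th2 cells were sequenced as 17 Smart-seq2 libraries. The authors deposited 1 table of RPKM per library, with 1 RefSeq transcript per gene on mm10. HISAT2 2.0.4, HOMER and DESeq2 are named in the submitters' processing notes, and roles and settings are not given in the sources used here. RPKM times length was whole reads (tolerance 0.1, below 100 reads, 100% of values checked), which gave depth and reads per gene.

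Each library was divided by a size factor, the median ratio to the geometric mean over the 6796 genes at 1 or more in all 17. Each comparison was fitted on its own 2 groups, and the knockout difference between node and culture on 11 libraries, with limma 3.58.1 (R 4.3.3; eBayes with trend) on log2(scaled RPKM + 1). A fold change is on that scale and understates low genes. Tests were two-sided, adjusted by Benjamini-Hochberg over all genes at 1 or more in as many libraries as the smaller group, at 0.05, and tested on simulated data. Replicate numbers were not taken as pairs: nothing in the labels ties equal numbers to a shared source, and the deviations of equally numbered libraries did not correlate above 0.1 in either comparison with 3 pairs.

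Members and lists were chosen with earlier results of these data known. Named were all members past the threshold, the extremes in level, preset isoforms and the ends of each list; others were picked after their values were seen. Shared 50-base words and overlaps come from GENCODE vM21. Some genes are not reported here by name.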

Additional observations from a re-analysis of the deposited data

Results flagged for a closer look

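Ndufb8, an accessory subunit of complex I, was at 108.6 scaled RPKM in knockout-labelled node replicate 2, while the other 3 libraries of that group lay between 132.9 and 133.9. That gap is a larger part of the group's range than Dixon's 95% limit for 4 samples allows. Chance gives about 1 such library in 20 groups, and 1 was found in 36 genes and sums checked in the only group of 4 libraries.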

How the results depend on the processing

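Named members kept their side of the threshold in 1321 of 1461 values under the alternatives, 112 fell below it, 28 passed it newly and no called member changed sign. In 76 of the 1321, none past the threshold, the sign changed. In the airway comparison 4 members fell with RPKM as deposited, 1 with a pseudocount of 0.1, 0 without the filter on low values and 0 with voom, and 224 genes passed without the filter and 244 with voom. In culture 2 genes passed with voom and 1 in 1 fit of all OTII libraries. Without the filter 9 members rose in wild type node against culture cells. In knockout-labelled node against culture cells 1 rose and 2 fell with RPKM as deposited or without the filter, and 5 rose and 3 fell in 1 fit of all OTII libraries. The complex II sum averaged 471.3 RPKM as deposited over the 6 groups. Its scaled group means ran from 346.6 in knockout-labelled cultured cells to 660.2 in airway cells. Deposited and scaled values differ only by the size factors, 1.05 to 1.22 in reporter and 0.92 to 0.97 in OTII libraries. The cause of the other changes was not tested.

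Leaving out 1 library gave these ranges. In the airway comparison 113 to 554 genes passed and 0 to 1 members fell. Between node genotypes 1008 to 2716 genes passed and 0 to 11 members fell. Between culture genotypes 0 to 65 genes passed. In wild type node against culture cells 2194 to 4363 genes passed, 6 to 27 members rose and 1 to 4 fell. In knockout-labelled node against culture cells 1703 to 4235 genes passed, 0 to 7 members rose and 1 to 4 fell. For the knockout difference between node and culture 195 to 555 genes passed.

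Same-numbered libraries correlated in their deviations from group means at 0.005 to 0.027 between airway and node reporter, -0.32 to -0.064 between node genotypes and -0.19 between culture genotypes. Between node and culture they did so at -0.011 and 0.33 in wild type and 0.067 and 0.079 in knockout-labelled cells. Some node libraries with different numbers reached more. Knockout-labelled replicate 1 (column header KO1-1) and wild type replicate 2 (WT2-1) were at 0.44. Knockout-labelled replicate 2 (KO1-2) and wild type replicate 3 (WT2-2) were at 0.50. Both pairs share the second number of their headers. The other node pairs that share it were at -0.064 to 0.20, and those that do not at -0.39 to 0.26. A block by that second number was not fitted. With a replicate block 1 member fell in the airway comparison and 0 between node genotypes, where 630 genes passed. With the block 65 genes passed between culture genotypes and 8 with the numbers crossed, with 0 members in either. In wild type node against culture cells 1 member fell with the block. The number that rose there was 7 to 16 over the 7 other settings, the block among them. The block left 1 member higher and 1998 genes in the knockout-labelled pair. It left 135 genes for the knockout difference.

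The column headers carry another numbering of the node OTII libraries, whose meaning is not stated. Averaging libraries by its first number was added after seeing the data. It gave 14 members lower between node genotypes, 7 higher and 1 lower in wild type node against culture cells, 8 lower in the knockout-labelled pair and 253 genes for the knockout difference. Intervals and floors cover counting error only, and members under 1 RPKM were not testable at this depth.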
